A study of Saccharomyces cerevisiae with 8 samples.

Results

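The transcripts described here encode heat shock proteins and the chaperones of the yeast cytosol and mitochondria. The genes were taken by symbol from a list of 37, which holds the disaggregase Hsp104, the Hsp70 and Hsp90 families with their partners, the small heat shock proteins, the mitochondrial chaperones and the sorting factors Btn2 and Cur1. Of these, 36 were found among the 6328 genes of the expression table, and *SSA1* was not analysed here. Transcripts were sequenced from *S. cerevisiae* strain Y128, which carries added genes for xylose isomerase and xylulose kinase and was evolved to ferment xylose without oxygen. The strain carries loss of function mutations in *ISU1*, *HOG1*, *GRE3* and *IRA2*, which the groups share. Each of the 4 groups has 2 libraries, lettered A and B, whose samples were taken on different days. WT is the strain labelled Y128, with no plasmid. The *azf1Δ* strain is the same with the transcription factor gene *AZF1* replaced by the *KanMX* cassette, and both were grown with no antibiotic. MoBY control carries an empty MoBY 2.0 plasmid and *AZF1* MoBY carries that plasmid with *AZF1*, both grown with G418 at 200 mg/L. The cultures were anaerobic, on 2% xylose, and in exponential phase. The labels name Y128, while the study's methods name Y133, its derivative with the resistance marker removed, and the strains are called here as labelled. The paper lists Y128 as resistant to G418. The resistance gene *kanR* stood at only 0.200 and 0.351 RPKM in WT, as in a strain without the marker. Because plasmid and G418 came together, their effects cannot be told apart in MoBY control against WT.

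Chaperones bind unfolded or newly made proteins and use ATP, nucleotide exchange factors and J proteins to fold them, hold them or hand them on. In yeast their genes are turned on when proteins misfold, mainly by the heat shock factor Hsf1, which binds repeated GAA units called heat shock elements, and in part by the stress factors Msn2 and Msn4, which bind the stress response element (STRE). A separate set of chaperones sits on the ribosome and is expressed with the translation machinery. G418 is an aminoglycoside that acts on the ribosome and can lower the accuracy of translation, and the plasmid's *kanR* gene encodes an enzyme that inactivates the drug.

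Values are RPKM, read counts scaled by gene length and by the mapped reads of the library. The size of a single read in each library implies about 6180000 to 7140000 mapped reads. *AZF1* stood at 13.2 and 11.6 RPKM in WT, at 0.0501 and 0.120 RPKM in *azf1Δ*, at 13.3 and 14.3 RPKM in MoBY control and at 74.0 and 73.5 RPKM in *AZF1* MoBY, so the deletion and the added copies matched the labels. The resistance gene *kanR* stood at 0.200 and 0.351 RPKM in WT, 11.8 and 8.17 RPKM in *azf1Δ*, which carries *KanMX*, 68.6 and 90.5 RPKM in MoBY control and 36.5 and 40.2 RPKM in *AZF1* MoBY. It was called higher in *azf1Δ* against WT as well (log2 change 3.09 ± 0.24, SE, limma adjusted p = 0.00970).

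Stretches of promoter sequence are shown for 7 chaperone genes that rose in MoBY control over WT, and for *HSP10*, which was not called. Each holds the heat shock element in the densest form searched for here. *SSE1*, *STI1*, *AHA1* and *HSP60*, also called higher there, hold that form too and are not shown. Each line gives 60 bases of the RefSeq R64 reference (strain S288C), read toward the gene. The capitals mark a run of 3 alternating GAA and TTC units with 2 bases between neighbouring units, here called a triple. In *HSP104*, *SIS1*, *HSP42*, *HSP78* and *BTN2* the run is longer and begins in the small letters before the capitals. Y128 may differ from this reference.
HSP104: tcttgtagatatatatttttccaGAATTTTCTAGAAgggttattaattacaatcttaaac
SSA2: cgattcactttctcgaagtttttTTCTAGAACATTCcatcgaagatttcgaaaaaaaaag
FES1: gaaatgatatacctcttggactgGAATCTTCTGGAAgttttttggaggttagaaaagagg
SIS1: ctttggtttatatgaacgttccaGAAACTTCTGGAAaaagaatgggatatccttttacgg
HSP42: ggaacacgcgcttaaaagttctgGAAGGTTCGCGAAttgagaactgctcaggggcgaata
HSP78: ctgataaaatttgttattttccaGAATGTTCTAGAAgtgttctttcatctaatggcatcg
BTN2: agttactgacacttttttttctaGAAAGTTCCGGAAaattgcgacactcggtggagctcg
HSP10: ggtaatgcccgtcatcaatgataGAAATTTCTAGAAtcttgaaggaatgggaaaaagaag

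Within the 400 bases before the start codon, a triple was found in 12 of 36 chaperone genes (33.3%), against 1.21% of 5622 promoters of genes in the table. The capitals lie 297 to 285 bases before the start codon of *HSP104*, 233 to 221 before *SSA2*, 171 to 159 before *FES1* and 160 to 148 before *HSP10*. The simpler pair of units, GAANNTTC or TTCNNGAA, which every triple also contains, was found in 24 of 36 (66.7%) against 29.4% of all promoters. The STRE, AGGGG or CCCCT, was found in 13 of 36 (36.1%) against 29.3%. A site of the type bound by Azf1, AAAAGAAA or TTTCTTTT, was found in 11 of 36 (30.6%) against 27.5%. The paper instead scored a matrix derived from promoters of hypoxic genes, so this share does not tell which chaperone genes hold the paper's motif. These counts describe letters on both strands of the reference and show no binding. Searches for the motifs can overlap, since the capitals of 1 triple contain 2 pairs.

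By summed level, the 36 genes made up 0.975% ± 0.0173 of the summed RPKM in WT, 0.955% ± 0.00236 in *azf1Δ*, 2.09% ± 0.118 in MoBY control and 3.18% ± 0.0309 in *AZF1* MoBY (SD, n = 2). The median gene of the list stood at 50.2 RPKM in WT and 259 RPKM in *AZF1* MoBY. The order of the genes also differed between groups. In WT the most abundant transcript of the list was *SSB2*, a ribosome-bound Hsp70, at 549.8 ± 48.4 RPKM, followed by its twin *SSB1* at 506 ± 49.5 RPKM and the mitochondrial Hsp70 gene *SSC1* at 504 ± 68.9 RPKM, which did not differ beyond their spread. In *AZF1* MoBY it was *SSA2*, the constitutive cytosolic Hsp70, at 1469 ± 43.2 RPKM, a level that may include reads of the near-identical *SSA1*. Next came the Hsp110 gene *SSE1* at 1164 ± 17.1 RPKM. *SSB2* then ranked at place 21 of the list and *SSB1* at place 26.

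**Figure D1:**
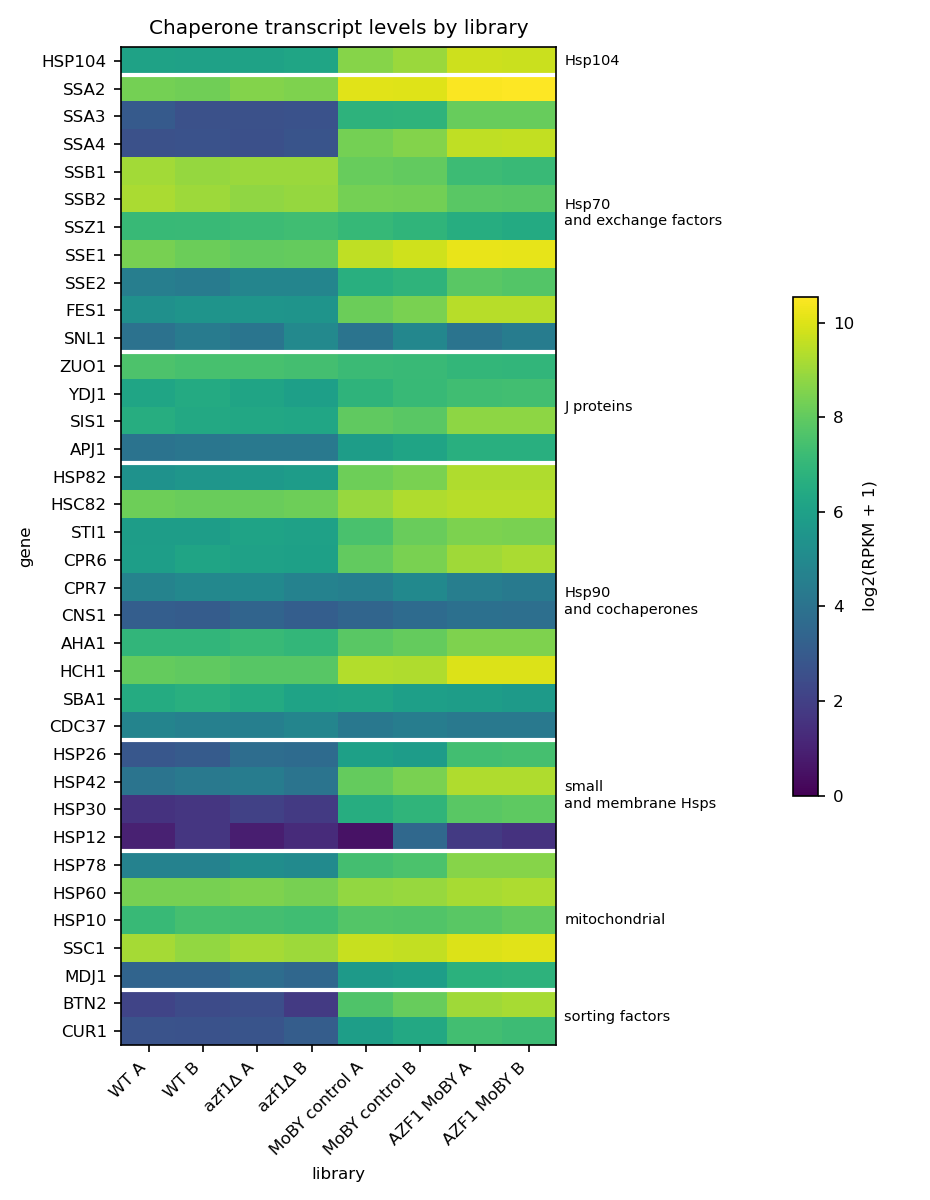
Levels of the 36 chaperone transcripts in each of the 8 libraries. Rows are genes grouped by class, columns are libraries, and color is log2(RPKM + 1); most rows brighten from the WT and *azf1Δ* columns to MoBY control and again to *AZF1* MoBY, whereas *SSB1* and *SSB2* darken.

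MoBY control against WT asked what carrying the empty plasmid and growing in G418 did to these transcripts. Of 36 chaperone genes tested, 25 were called higher and 4 lower, where a call is a limma adjusted p under 0.05 over all genes tested. Of the 5991 genes tested in all, 13.2% were called higher and 10.6% lower. The median log2 change of the chaperone genes was 1.42, against -0.02 for all genes. Among the genes called higher the fold ran from 1.40 for the mitochondrial chaperonin gene *HSP60* to 66.7 for *SSA4*, a stress-induced cytosolic Hsp70, and it was 4 or more for 15 of the 25. The 4 genes called lower were *SSB1*, *SSB2* and *ZUO1*, which act at the ribosome, and *SBA1*, the Hsp90 cochaperone related to p23. Of these 29 calls 20 were kept in every alternative, and without a variance trend *HSP60*, *YDJ1*, *SBA1* and *ZUO1* were not called (limma adjusted p = 0.0527, 0.0543, 0.0614 and 0.107).

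*AZF1* MoBY against MoBY control compared strains that share plasmid and drug and differ in *AZF1* on the plasmid. Here 22 chaperone genes were called higher and 3 lower by limma adjusted p, against 10.2% and 6.17% of 6029 genes. The median log2 change was 0.60, against 0.00 for all genes. The folds were smaller than in the comparison of MoBY control with WT, from 1.27 for *HSP60* to 2.82 for the small heat shock protein gene *HSP26*, and 10 reached 2 or more. Each of the 22 was also called higher in MoBY control against WT; both comparisons use the MoBY control libraries, so the counts are not independent. Genes called lower were *SSB1*, *SSB2* and *SSZ1*, of the ribosome-bound set. The calls rest on both *AZF1* MoBY libraries: with either of them left out, 0 genes of the list and 0 of the whole table passed, although the median log2 change of the list was 0.58 and 0.61. The count was 17 without a variance trend, where *APJ1*, *AHA1*, *SSB2*, *SSA2*, *SSE1*, *SSZ1*, *SSC1* and *HSP60* were not called (limma adjusted p from 0.0523 to 0.128). With an *AZF1* MoBY library left out, the spread is estimated from the MoBY control libraries alone, where replicate B exceeded A by a median log2 of 0.23 over the list and 0.04 over all genes. The *kanR* transcript itself fell in *AZF1* MoBY (log2 change -1.02 ± 0.15, SE, limma adjusted p = 0.0110), and its part in these differences was not tested.

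**Figure D2:**
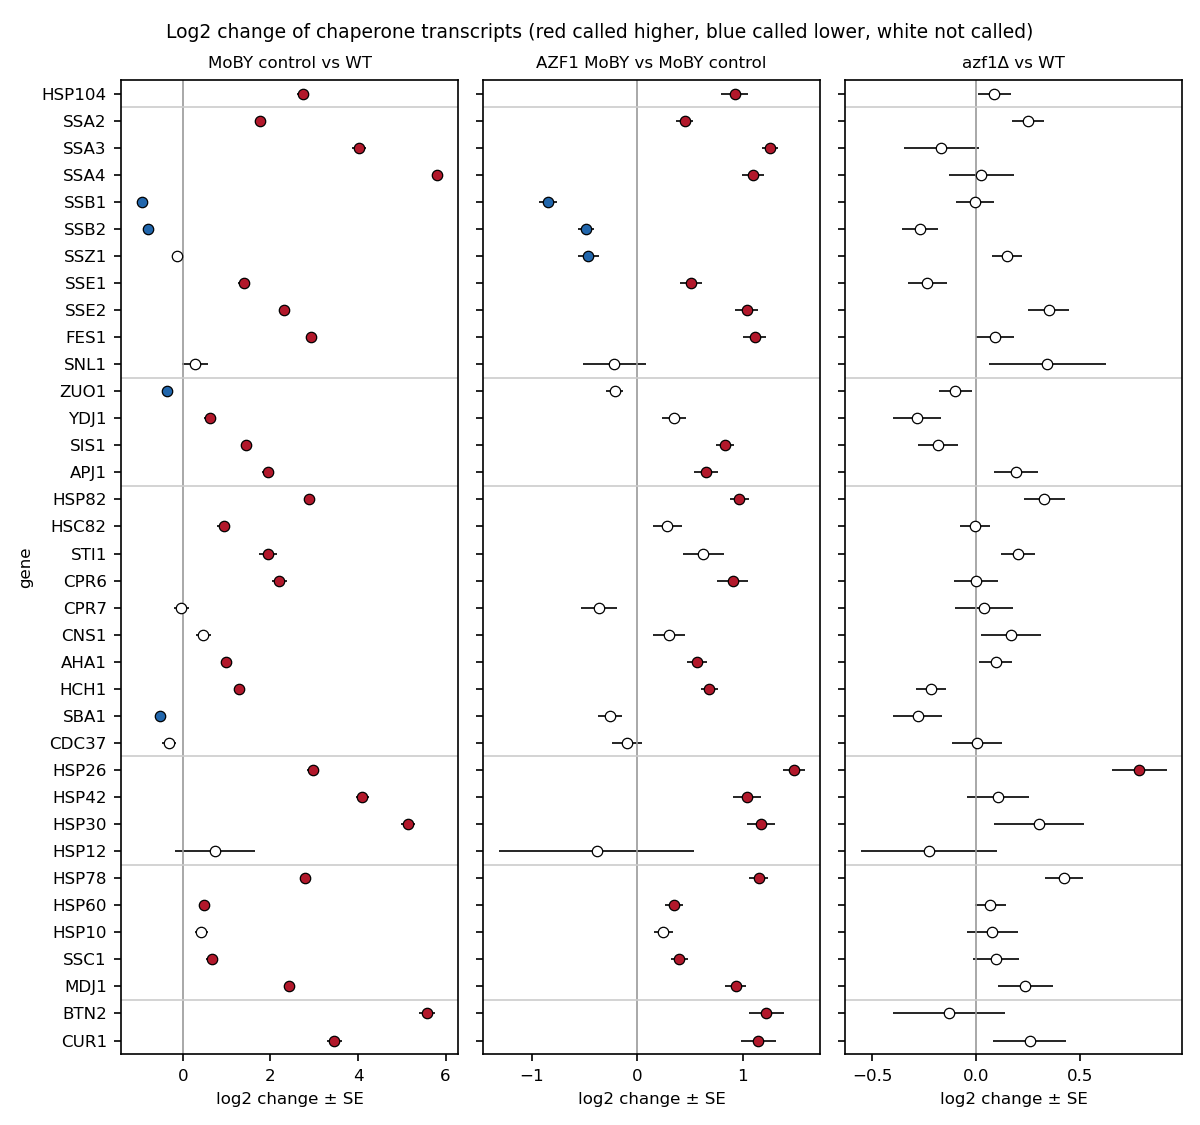
Log2 change of each chaperone transcript in 3 comparisons, with bars of ± SE from limma (2 libraries a group). Red points were called higher, blue lower and white were not called; the scales of the panels differ, from about 6 in MoBY control against WT to under 1 in *azf1Δ* against WT.

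*azf1Δ* against WT asked which transcripts depended on *AZF1* in cells with neither plasmid nor drug. Here 1 of 36 genes was called higher and 0 lower by limma adjusted p, against 0.942% and 0.791% of 5944 genes. An unadjusted limma p under 0.05 was found for 11 of the 36 (30.6%), against 17.6% of all genes tested. These 11 went in both directions, with *SSE2* and *HSP82* higher, for example, and *SSE1* and *YDJ1* lower. The gene called was *HSP26*, at 6.23 and 7.11 RPKM in WT and 12.6 and 11.8 RPKM in *azf1Δ*, with no overlap (log2 change 0.79 ± 0.13, SE, limma adjusted p = 0.0457). Leaving out any 1 of the 4 libraries kept its log2 change between 0.70 and 0.87 and ended the call (limma adjusted p from 0.311 to 0.541), as did 4 other settings (0.0632 after median-ratio rescaling, for example). The next by limma adjusted p was *HSP78*, the mitochondrial disaggregase, at 24.8 RPKM in both WT libraries and 34.8 and 32.5 RPKM in *azf1Δ* (log2 change 0.43 ± 0.09, SE, limma adjusted p = 0.0826). The median log2 change of the list was 0.08, against 0.04 for all genes. Wide intervals remain for the low genes, such as *BTN2*, whose log2 change was -0.13 with a 95% interval from -0.78 to 0.52.

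The difference between the effects, *AZF1* MoBY minus MoBY control less *azf1Δ* minus WT, uses each library once. The first effect was measured with plasmid and G418 and the second without them. Gain against loss of *AZF1* therefore cannot be told apart from that background in this difference. By limma adjusted p it was above 0 for 19 chaperone genes and below 0 for 2, against 7.90% and 6.80% of 6105 genes. Its median was 0.55 on the log2 scale, against -0.04 for all genes. The median log2 change of the list was 0.60 in *AZF1* MoBY against MoBY control and 0.08 in *azf1Δ* against WT. The difference thus largely repeats the first of these. Among the genes above 0 the difference ran from 0.47 ± 0.12 for *AHA1* (SE, limma adjusted p = 0.0391) to 1.43 ± 0.18 for *SSA3* (limma adjusted p = 0.00284). *SSB1* and *SSZ1*, of the ribosome-bound set, were below 0, at -0.84 ± 0.12 (SE, limma adjusted p = 0.00455) and -0.61 ± 0.12 (limma adjusted p = 0.0132). The call was kept in every alternative for 8 genes, namely *HSP104*, *SSA3*, *SSA4*, *FES1*, *SIS1*, *HCH1*, *HSP78* and *SSB1*. The other 13 lost it without at least 1 library, with limma adjusted p up to 0.147 for *YDJ1*. The count of 21 fell to 11 when WT replicate B was left out, to 10 for *azf1Δ* replicate B, and to 10 and 8 for *AZF1* MoBY replicates A and B.

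*HSP104* encodes the hexameric ATPase that threads proteins out of aggregates. Its level was 66.3 and 64.9 RPKM in WT, 67.2 and 72.5 RPKM in *azf1Δ*, 396 and 498 RPKM in MoBY control and 861 and 826 RPKM in *AZF1* MoBY. The plasmid groups stood apart from WT and from each other with no overlap, while WT and *azf1Δ* differed little. The log2 change was 2.74 ± 0.13 (SE, limma adjusted p = 7.06e-05) in MoBY control against WT and 0.92 ± 0.13 (limma adjusted p = 0.00831) in *AZF1* MoBY against MoBY control. Between the effects of *AZF1* MoBY and *azf1Δ* the difference was 0.83 ± 0.16 (SE, limma adjusted p = 0.0105).

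Among the cytosolic Hsp70 genes, those known as stress-induced moved most. *SSA4* stood at 5.17 and 5.35 RPKM in WT, 4.99 and 5.78 RPKM in *azf1Δ*, 322 and 380 RPKM in MoBY control and 744 and 755 RPKM in *AZF1* MoBY. In WT it lay at the 20.7th percentile of all genes by level, and in *AZF1* MoBY at the 98.5th. Its log2 change was 5.81 ± 0.12 (SE, limma adjusted p = 1.07e-05) in MoBY control against WT and 1.10 ± 0.10 (limma adjusted p = 0.00353) with *AZF1* on the plasmid. *SSA3*, the other induced form, stood at 7.01 and 5.13 RPKM in WT, 5.10 and 5.39 RPKM in *azf1Δ*, 111 and 115 RPKM in MoBY control and 274 and 271 RPKM in *AZF1* MoBY. It too had the plasmid groups apart from the others in every library, with log2 changes of 4.03 ± 0.16 (SE, limma adjusted p = 3.86e-05) and 1.26 ± 0.08 (limma adjusted p = 0.00218). *SSA2*, the constitutive form, began far higher, at 326 and 307 RPKM in WT and 385 and 367 RPKM in *azf1Δ*, and reached 1090 and 1060 RPKM in MoBY control and 1438 and 1499 RPKM in *AZF1* MoBY. Its log2 changes were 1.76 ± 0.11 (SE, limma adjusted p = 0.000157) and 0.45 ± 0.08 (limma adjusted p = 0.0208), and the second call was lost when any 1 of its 4 libraries was left out (limma adjusted p from 0.0502 to 0.298). Of the 100-base windows of *SSA2*, 46.0% also occur elsewhere in the reference, chiefly in the near-identical *SSA1*. Reads of *SSA1* may thus be counted as *SSA2*, so both the level and the changes of *SSA2* are uncertain.

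The exchange factors reset Hsp70 by releasing ADP, and 3 of the 4 rose in both plasmid comparisons. *FES1* stood at 38.6 and 42.5 RPKM in WT, 44.0 and 42.5 RPKM in *azf1Δ*, 288 and 347 RPKM in MoBY control and 689.8 and 680.3 RPKM in *AZF1* MoBY. Its log2 changes in the plasmid comparisons were 2.93 ± 0.13 (SE, limma adjusted p = 4.82e-05) and 1.11 ± 0.11 (limma adjusted p = 0.00394). *SSE1*, the main yeast Hsp110, stood at 336 and 288 RPKM in WT, 259.6 and 269 RPKM in *azf1Δ*, 749.6 and 891 RPKM in MoBY control and 1176 and 1152 RPKM in *AZF1* MoBY. Replicates of MoBY control were further apart here than those of *AZF1* MoBY, and the groups still did not overlap. *SSE1* changed by 1.39 ± 0.14 (SE, limma adjusted p = 0.00112) and 0.51 ± 0.11 (limma adjusted p = 0.0312) on the log2 scale, and the second call was lost with no filter (limma adjusted p = 0.0625). *SSE2*, its minor relative, stood at 21.6 and 19.8 RPKM in WT, 26.7 and 26.5 RPKM in *azf1Δ*, 99.0 and 116 RPKM in MoBY control and 229 and 214 RPKM in *AZF1* MoBY, and it changed by 2.32 ± 0.13 (SE, limma adjusted p = 0.000108) and 1.04 ± 0.11 (limma adjusted p = 0.00422). *SNL1*, whose product is an exchange factor anchored in the endoplasmic reticulum membrane, had overlapping groups between 14.7 and 30.1 RPKM and was called in no comparison.

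The ribosome-bound chaperones went the other way. Ssb1 and Ssb2 are the Hsp70s that meet the nascent chain, and Ssz1 and the J protein Zuo1 form the complex that stimulates them. *SSB1* stood at 541 and 471 RPKM in WT, 505 and 502 RPKM in *azf1Δ*, 271 and 256 RPKM in MoBY control and 149 and 143 RPKM in *AZF1* MoBY. Both plasmid groups were below every library without plasmid, and *AZF1* MoBY was below MoBY control. Its log2 change was -0.94 ± 0.12 (SE, limma adjusted p = 0.00267) in MoBY control against WT and -0.85 ± 0.08 (limma adjusted p = 0.00382) in *AZF1* MoBY against MoBY control. *SSB2* stood at 584 and 516 RPKM in WT, 446 and 465 RPKM in *azf1Δ*, 324 and 311 RPKM in MoBY control and 229 and 224 RPKM in *AZF1* MoBY, with log2 changes of -0.79 ± 0.11 (SE, limma adjusted p = 0.00460) and -0.48 ± 0.08 (limma adjusted p = 0.0142). The pair shares 31.8% of its 100-base windows, so how reads were divided between its members is uncertain. With their RPKM summed, the log2 change was -0.86 ± 0.12 (SE, limma adjusted p = 0.00414) and -0.64 ± 0.08 (limma adjusted p = 0.00676).

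*SSZ1* stood at 136 and 139 RPKM in WT, 149 and 157 RPKM in *azf1Δ*, 133 and 119 RPKM in MoBY control and 94.4 and 87.4 RPKM in *AZF1* MoBY. In MoBY control against WT the change was not called (log2 change -0.13 ± 0.11, SE, limma adjusted p = 0.414), and *AZF1* MoBY lay below MoBY control (-0.46 ± 0.10, limma adjusted p = 0.0320). *ZUO1* stood at 191 and 179 RPKM in WT, 179 and 167 RPKM in *azf1Δ*, 145 and 143 RPKM in MoBY control and 127 and 121 RPKM in *AZF1* MoBY. Its change was called in the first comparison (-0.36 ± 0.10, limma adjusted p = 0.0474) and not in the second (-0.21 ± 0.08, limma adjusted p = 0.142). The smaller changes here depend on each library: in MoBY control against WT, *SSB2* and *ZUO1* lost their calls without any 1 of the 4 libraries (limma adjusted p from 0.0548 to 0.0756 and from 0.108 to 0.278), and *SSB1* did without WT replicate A or either MoBY control library (up to 0.0596). *SSZ1* lost its call in the second comparison in the same way (0.0713 to 0.320), and both *ZUO1* in the first and *SSZ1* in the second lost it after rescaling by median ratios. Summed, the 4 genes made up 0.305% ± 0.0161 of all RPKM in WT, 0.281% ± 0.00590 in *azf1Δ*, 0.188% ± 0.00970 in MoBY control and 0.129% ± 0.00341 in *AZF1* MoBY (n = 2, SD).

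**Figure D3:**
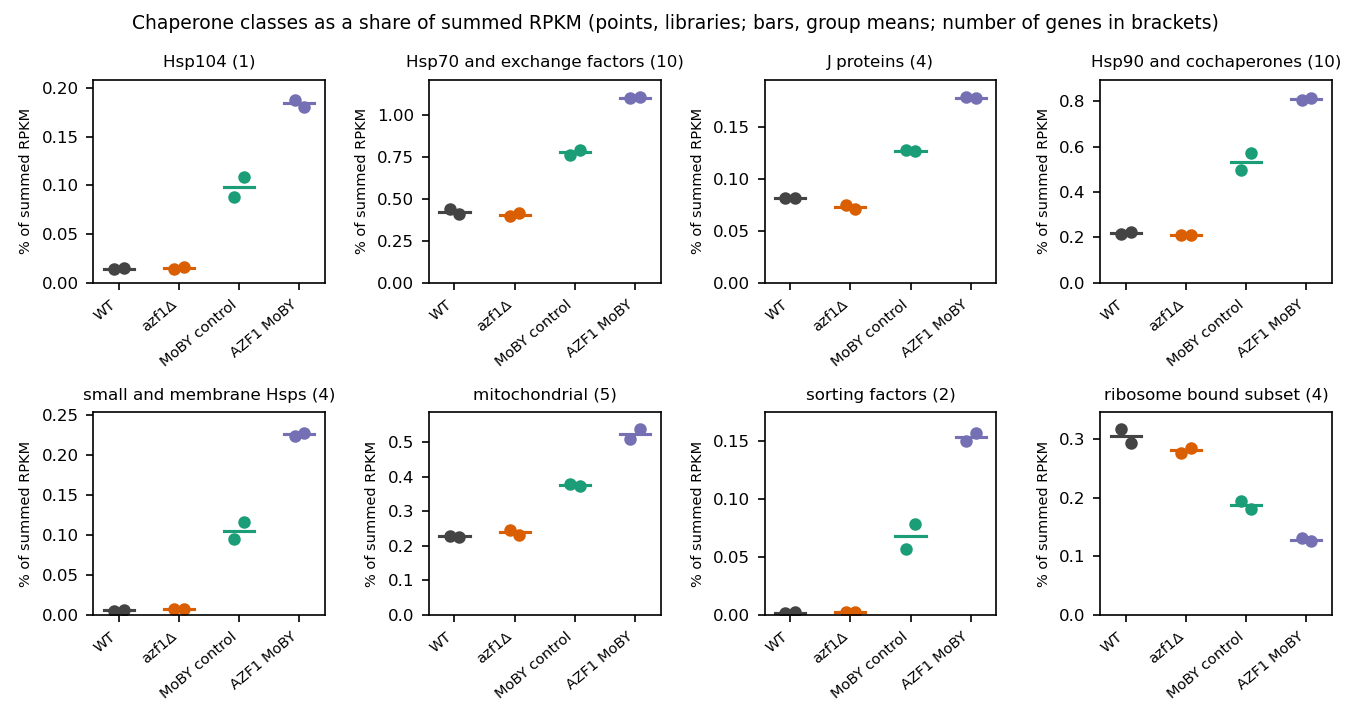
Each chaperone class as a percent of the summed RPKM of all genes, by group. Points are libraries and bars are means of 2; the ribosome-bound subset, at the lower right, falls from 0.305% in WT to 0.129% in *AZF1* MoBY, while each of the other 7 panels is higher in *AZF1* MoBY than in WT.

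The J proteins of the cytosol deliver substrates to Hsp70. *SIS1*, an essential one, stood at 95.0 and 82.1 RPKM in WT, 79.9 and 75.6 RPKM in *azf1Δ*, 254 and 232 RPKM in MoBY control and 437 and 430.5 RPKM in *AZF1* MoBY. It changed by 1.45 ± 0.12 (SE, limma adjusted p = 0.000495) and 0.83 ± 0.09 (limma adjusted p = 0.00420) on the log2 scale. *YDJ1*, a general J protein of the cytosol, stood at 73.5 and 87.4 RPKM in WT, 70.5 and 61.0 RPKM in *azf1Δ*, 114 and 136 RPKM in MoBY control and 157 and 161 RPKM in *AZF1* MoBY. Its rise over WT was smaller (0.63 ± 0.14, SE, limma adjusted p = 0.0225) and was not called without any 1 library of that comparison (limma adjusted p from 0.0859 to 0.197). It was not called in *AZF1* MoBY against MoBY control (0.35 ± 0.11, limma adjusted p = 0.0932). *APJ1*, a further J protein, ranged from 15.0 to 18.5 RPKM without plasmid and from 58.1 to 101 RPKM with it and was called higher in both plasmid comparisons.

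Hsp90 is encoded by *HSP82*, which is stress-induced, and *HSC82*, which is constitutive. *HSP82* stood at 40.2 and 45.3 RPKM in WT, 51.3 and 56.5 RPKM in *azf1Δ*, 300.2 and 340.1 RPKM in MoBY control and 626 RPKM in both *AZF1* MoBY libraries. *HSC82* stood at 298 and 282 RPKM in WT, 284 and 294 RPKM in *azf1Δ*, 488 and 635 RPKM in MoBY control and 676 and 680.3 RPKM in *AZF1* MoBY. So the induced gene, far below the constitutive one in WT, nearly met it in *AZF1* MoBY. *HSP82* changed by 2.88 ± 0.12 (SE, limma adjusted p = 3.99e-05) and 0.97 ± 0.09 (limma adjusted p = 0.00359) on the log2 scale. *HSC82* changed by 0.94 ± 0.15 (SE, limma adjusted p = 0.00669) in MoBY control against WT, a call lost without MoBY control replicate B or either WT library (limma adjusted p up to 0.108), and by 0.28 ± 0.14 (limma adjusted p = 0.222) in *AZF1* MoBY, a change called without MoBY control replicate B (0.47, limma adjusted p = 0.0448). Summed, *HSP82* and *HSC82* were called higher in both (1.39 ± 0.13, SE, limma adjusted p = 0.00102, and 0.57 ± 0.12, limma adjusted p = 0.0303).

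Cochaperones of Hsp90 divided into those that rose and those that did not. *CPR6*, a cyclophilin that binds Hsp90, stood at 58.5 and 70.0 RPKM in WT, 64.9 and 63.1 RPKM in *azf1Δ*, 259.6 and 343 RPKM in MoBY control and 534 and 584 RPKM in *AZF1* MoBY. Its relative *CPR7* overlapped across groups, at 25.1 and 29.5 RPKM in WT, 31.3 and 24.9 RPKM in *azf1Δ*, 22.8 and 30.9 RPKM in MoBY control and 21.7 and 19.3 RPKM in *AZF1* MoBY. *CPR6* was 4.68-fold higher in MoBY control than in WT (limma adjusted p = 0.000366) and 1.86-fold higher in *AZF1* MoBY than in MoBY control (limma adjusted p = 0.0136), the latter not called without MoBY control replicate A (limma adjusted p = 0.0548), and *CPR7* was called in neither comparison (-0.03 ± 0.18 and -0.36 ± 0.17, limma adjusted p = 0.921 and 0.223). *AHA1*, the activator of the Hsp90 ATPase, stood at 124 RPKM in both WT libraries, 138 and 126 RPKM in *azf1Δ*, 231 and 263 RPKM in MoBY control and 367 and 362 RPKM in *AZF1* MoBY, changing by 0.99 ± 0.11 (SE, limma adjusted p = 0.00180, or 0.0546 without WT replicate B) and 0.56 ± 0.09 (limma adjusted p = 0.0156). Its shorter relative *HCH1* stood at 267 and 254 RPKM in WT, 223 and 224 RPKM in *azf1Δ*, 639 and 635 RPKM in MoBY control and 1031 and 1017 RPKM in *AZF1* MoBY, changing by 1.29 ± 0.10 (SE, limma adjusted p = 0.000431) and 0.68 ± 0.08 (limma adjusted p = 0.00514). *STI1*, which bridges Hsp70 and Hsp90, rose in MoBY control from 57.7 ± 0.565 to 230.2 ± 67.8 RPKM (SD, n = 2), the widest replicate spread of the cochaperones in RPKM. It was not called in *AZF1* MoBY against MoBY control (log2 change 0.63 ± 0.20, SE, limma adjusted p = 0.0876), and it was called without MoBY control replicate B (0.93, limma adjusted p = 0.0436) and with all 8 libraries in one fit (limma adjusted p = 0.0265). *CNS1* and *CDC37*, essential cochaperones, were called in neither, at group means from 7.55 to 13.6 RPKM and from 18.0 to 24.5 RPKM, though with all 8 libraries in one fit *CNS1* was called higher in MoBY control against WT (log2 change 0.47, limma adjusted p = 0.0415). *SBA1* was lower in MoBY control, at 65.5 ± 6.41 against 94.2 ± 6.92 RPKM (SD, n = 2), a call lost without any 1 of those 4 libraries (limma adjusted p from 0.0743 to 0.224).

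**Figure D4:**
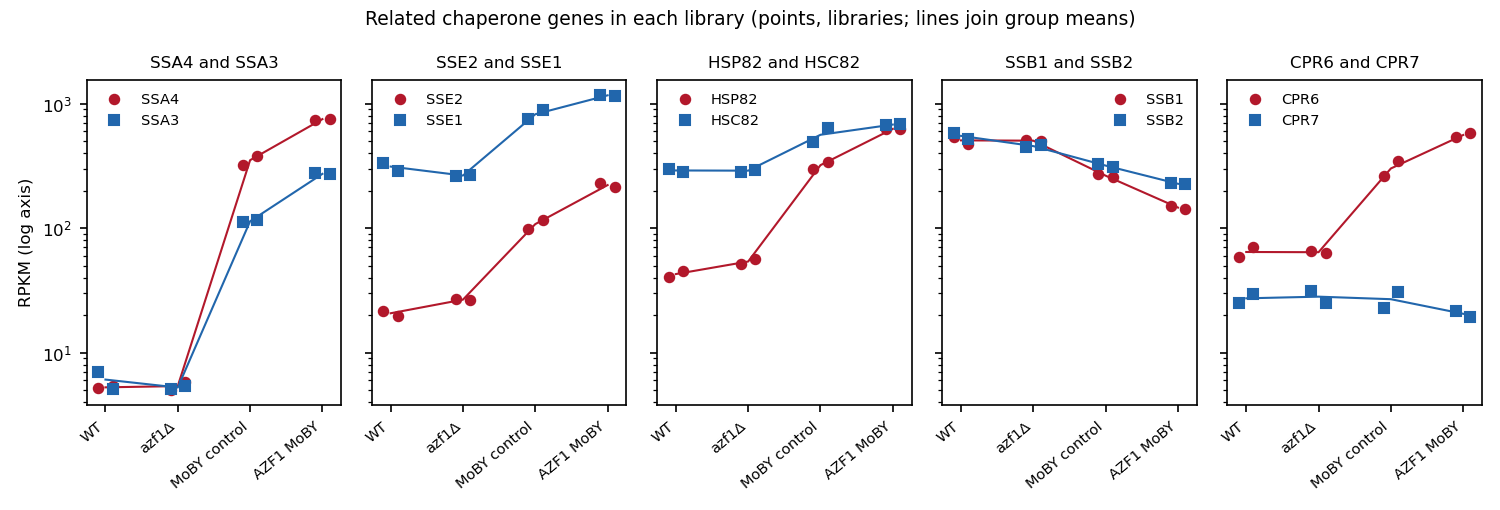
Levels of related chaperone genes in each library, in RPKM on a log axis. Points are libraries and lines join group means of 2; *HSP82* approaches *HSC82* and *CPR6* parts from *CPR7* across the plasmid groups, and *SSB1* falls further below *SSB2* in *AZF1* MoBY.

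Within related genes the balance moved with the groups. The ratio of *SSA4* to *SSA3* was 0.890 ± 0.216 in WT, 1.03 ± 0.0653 in *azf1Δ*, 3.09 ± 0.287 in MoBY control and 2.75 ± 0.0539 in *AZF1* MoBY (SD, n = 2). For *HSP82* to *HSC82* it was 0.148 ± 0.0180, 0.186 ± 0.00822, 0.576 ± 0.0564 and 0.923 ± 0.00453 in the same order. These ratios compare levels per length within a library and were given no test. *SSE2* to *SSE1* went from 0.0666 ± 0.00326 in WT to 0.101 ± 0.00296 in *azf1Δ*, 0.131 ± 0.00129 in MoBY control and 0.190 ± 0.00652 in *AZF1* MoBY, with no overlap between any groups. *CPR6* to *CPR7* was 2.35 ± 0.0346 in WT and 27.4 ± 4.02 in *AZF1* MoBY. *BTN2* to *CUR1* was 0.730 ± 0.125 in WT, 0.577 ± 0.356 in *azf1Δ*, 3.36 ± 0.0330 in MoBY control and 3.53 ± 0.432 in *AZF1* MoBY. *SSB1* to *SSB2* was 0.920 ± 0.00902 in WT, 1.11 ± 0.0379 in *azf1Δ*, 0.829 ± 0.00813 in MoBY control and 0.644 ± 0.00947 in *AZF1* MoBY, so the balance moved opposite ways in *azf1Δ* and in the plasmid groups. *AHA1* to *HCH1* moved less, between 0.356 in *AZF1* MoBY and 0.591 ± 0.0405 in *azf1Δ*. The coding sequences of the reference are 97.4% identical for *SSB1* and *SSB2*, 91.7% for *HSP82* and *HSC82*, 76.6% for *SSA3* and *SSA4* and 71.8% for *SSE1* and *SSE2*. Shared 100-base windows were 0.689% of *HSP82* and 0% of *SSA3*, *SSA4*, *SSE1* and *SSE2*.

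The small heat shock proteins hold unfolded proteins in a state that can be refolded. *HSP26* reached 63.6 and 55.3 RPKM in MoBY control and 164 and 171 RPKM in *AZF1* MoBY, above both groups without plasmid. Its log2 change was 2.98 ± 0.14 (SE, limma adjusted p = 6.18e-05) in the first plasmid comparison and 1.48 ± 0.10 (limma adjusted p = 0.00218) in the second, the largest of the list there. *HSP42* stood at 15.6 and 18.0 RPKM in WT, 20.5 and 15.9 RPKM in *azf1Δ*, 267 and 345 RPKM in MoBY control and 626 and 622 RPKM in *AZF1* MoBY, with log2 changes of 4.10 ± 0.15 (SE, limma adjusted p = 3.50e-05) and 1.04 ± 0.13 (limma adjusted p = 0.00692). *HSP30* encodes a plasma membrane protein that restrains the proton pump Pma1. It stood at 1.93 and 2.14 RPKM in WT, 3.10 and 2.43 RPKM in *azf1Δ*, 93.1 and 119 RPKM in MoBY control and 232 and 246 RPKM in *AZF1* MoBY. It thus moved from the 10.8th to the 94.8th percentile of all genes between WT and *AZF1* MoBY, with log2 changes of 5.13 ± 0.16 (SE, limma adjusted p = 2.52e-05) and 1.17 ± 0.13 (limma adjusted p = 0.00509). *HSP12*, a membrane-stabilizing protein and a well known target of Msn2 and Msn4, was the exception of the class. It stood at 0.979 and 2.17 RPKM in WT, 0.853 and 1.47 RPKM in *azf1Δ*, 0.441 and 11.0 RPKM in MoBY control and 2.45 and 1.95 RPKM in *AZF1* MoBY. Its MoBY control libraries lay far apart, and its lowest value equals about 1 read. *HSP12* was called in no comparison, but without MoBY control replicate A it was called lower in *AZF1* MoBY than in the control (log2 change -1.91, limma adjusted p = 0.0447).

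Among the mitochondrial genes of the list, *HSP78* and *MDJ1* moved more than the chaperonin genes *HSP60* and *HSP10*. Of 6 further mitochondrial folding genes outside the list, 5 were not called in MoBY control against WT. The other, *MGE1*, was called lower there (log2 change -0.60 ± 0.16, SE, limma adjusted p = 0.0386). Among all genes tested 13.2% were called higher there and 10.6% lower, so 1 of 6 is near those shares. *HSP78* stood at 168 and 189 RPKM in MoBY control and 393 and 399 RPKM in *AZF1* MoBY, with log2 changes of 2.80 ± 0.11 (SE, limma adjusted p = 3.86e-05) and 1.15 ± 0.09 (limma adjusted p = 0.00268). *MDJ1*, the J protein of mitochondrial Hsp70, stood at 9.58 and 9.65 RPKM in WT, 12.6 and 10.6 RPKM in *azf1Δ*, 53.5 and 58.9 RPKM in MoBY control and 105 and 111 RPKM in *AZF1* MoBY. It changed by 2.43 ± 0.12 (SE, limma adjusted p = 8.24e-05) and 0.93 ± 0.10 (limma adjusted p = 0.00423), with no overlap between plasmid groups. *SSC1* and *HSP60*, abundant in every group, changed by 0.66 ± 0.13 (SE, limma adjusted p = 0.0149) and 0.48 ± 0.10 (limma adjusted p = 0.0196) in MoBY control against WT. In *AZF1* MoBY against MoBY control they changed by 0.40 ± 0.08 (limma adjusted p = 0.0285) and 0.35 ± 0.09 (limma adjusted p = 0.0485). In both comparisons the calls of *SSC1* and *HSP60* were lost without any 1 of the 4 libraries (limma adjusted p up to 0.145 and 0.161 in the first, 0.336 and 0.417 in the second). *HSP10*, the partner ring of Hsp60, was called in no comparison, though with all 8 libraries in one fit it was called higher in MoBY control against WT (log2 change 0.42, limma adjusted p = 0.0277). It stood at 135 and 175 RPKM in WT and 232 and 259.6 RPKM in *AZF1* MoBY.

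The sorting factors Btn2 and Cur1 steer misfolded proteins to deposition sites. *BTN2* stood at 3.53 and 4.32 RPKM in WT, 4.76 and 2.50 RPKM in *azf1Δ*, 197 and 276 RPKM in MoBY control and 523 and 568 RPKM in *AZF1* MoBY. Its log2 change was 5.58 ± 0.19 (SE, limma adjusted p = 2.93e-05) in MoBY control against WT and 1.22 ± 0.17 (limma adjusted p = 0.00850) in *AZF1* MoBY against MoBY control. *CUR1* stood at 5.50 and 5.28 RPKM in WT, 5.74 and 7.67 RPKM in *azf1Δ*, 58.9 and 81.6 RPKM in MoBY control and 162 and 148 RPKM in *AZF1* MoBY, and it changed by 3.46 ± 0.18 (SE, limma adjusted p = 9.01e-05) and 1.15 ± 0.16 (limma adjusted p = 0.00972). Both genes were higher in replicate B of MoBY control than in replicate A, and MoBY control did not overlap *AZF1* MoBY for either.

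Set beside these calls, the promoter letters were unevenly spread. A triple was found in 11 of the 25 genes called higher in MoBY control (44%) and in 1 of the other 11 (9.09%), which is *HSP10*. A pair was found in 21 of 25 (84%) and 3 of 11 (27.3%). The STRE was found in 10 of 25 (40%) and 3 of 11 (27.3%), and the Azf1 site in 8 of 25 (32%) and 3 of 11 (27.3%). No test was made of these shares. Among the strongest movers, *BTN2* and *HSP42* have 2 overlapping triples each, *SSA4* and *CUR1* a pair with no triple, and *SSA3* and *HSP30* no match to any of the motifs in this window. *HSP12* has 3 STRE matches and no pair, and Azf1 sites number 4 for *SSE1* and 2 each for *BTN2*, *HSC82*, *CNS1*, *SSB1* and *SSB2*.

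**Figure D5:**
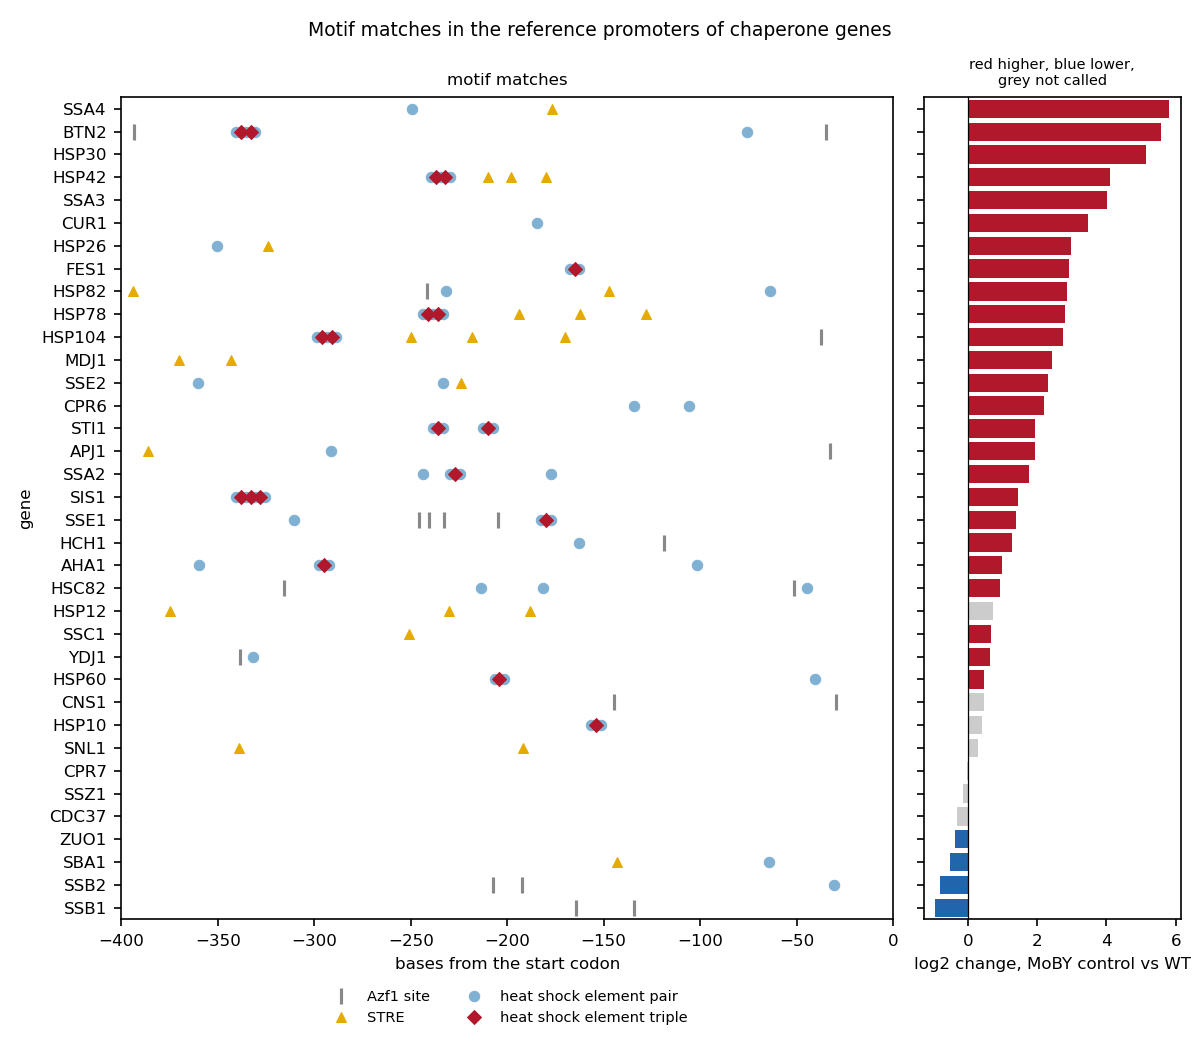
Motif matches in the 400 bases before the start codon (left, position in bases) and the log2 change in MoBY control against WT (right, bars from 0, red called higher, blue called lower, grey not called), with genes sorted by that change. Triples, drawn as red diamonds, occur in 11 of the 25 genes called higher and in *HSP10*.

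The genes of Hsf1, Msn2 and Msn4 were themselves called in none of the pairwise comparisons. In *AZF1* MoBY against MoBY control *MSN2* and *MSN4* were lower without being called. Their log2 changes were -0.35 ± 0.12 and -0.36 ± 0.11 (SE, limma adjusted p = 0.111 and 0.0791). The paper, which used edgeR, reports that extra *AZF1* lowered the expression of both. It also reports an enrichment of Msn2 and Msn4 targets among the genes lowered by extra *AZF1*. That result covered genes that changed the same way in Y128 against its ancestor Y22-3. Of the chaperone genes, 22 were called higher and 3 lower by limma adjusted p in this comparison. How many of them are among the paper's targets was not tested. *HSF1* stood at 8.34 and 10.4 RPKM in WT, 12.8 and 9.45 RPKM in *azf1Δ*, 12.8 and 14.1 RPKM in MoBY control and 11.0 and 11.3 RPKM in *AZF1* MoBY. *MSN4* stood at 95.7 and 86.8 RPKM in WT, 116 RPKM in both *azf1Δ* libraries, 79.3 and 68.1 RPKM in MoBY control and 57.3 and 56.5 RPKM in *AZF1* MoBY. It was highest without *AZF1* and lowest with the *AZF1* plasmid, and the difference between these effects was below 0 for *MSN4* (-0.71 ± 0.14 on the log2 scale, SE, limma adjusted p = 0.0110) and *MSN2* (-0.58 ± 0.15, limma adjusted p = 0.0350).

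For comparison, 33 further genes of protein folding outside the list were counted. They were chosen with earlier results of these data known, so the comparison is not independent. In MoBY control against WT 4 were called higher and 6 lower (median log2 change -0.03), where 13.2% and 10.6% of all genes were. In *AZF1* MoBY against MoBY control 1 was called higher and 3 lower (median log2 change -0.09), where 10.2% and 6.17% of all genes were. In *azf1Δ* against WT 0 were called by limma adjusted p, where 0.942% of all genes were called higher and 0.791% lower. An unadjusted limma p under 0.05 was found for 2 (6.06%), against 17.6% of all genes. The polyubiquitin gene *UBI4*, at 160 and 175 RPKM in WT, 164 and 187 RPKM in *azf1Δ*, 367 and 290.0 RPKM in MoBY control and 516 and 538 RPKM in *AZF1* MoBY, was called higher in both plasmid comparisons (0.96 ± 0.14, SE, limma adjusted p = 0.00509, and 0.69 ± 0.13, limma adjusted p = 0.0207). The cyclophilin gene *CPR1* rose in MoBY control against WT (0.97 ± 0.17, SE, limma adjusted p = 0.0103), while the other prolyl isomerases of the list, *CPR3* and *FPR1*, were called lower there (-0.63 ± 0.11 and -0.48 ± 0.11, limma adjusted p = 0.0106 and 0.0206). *FPR1* was also called lower in *AZF1* MoBY against MoBY control (-0.61 ± 0.08, limma adjusted p = 0.00692). *EGD1* and *EGD2*, which encode the nascent polypeptide associated complex at the ribosome exit, were called lower in both. *EGD2* stood at 388 and 352 RPKM in WT, 428 and 396 RPKM in *azf1Δ*, 208 and 256 RPKM in MoBY control and 137 and 124 RPKM in *AZF1* MoBY. *EGD1* fell by 0.89 ± 0.14 (SE, limma adjusted p = 0.00745) and 0.63 ± 0.13 (limma adjusted p = 0.0286) on the log2 scale. The 6 prefoldin genes, whose products pass nascent actin and tubulin to the chaperonin of the cytosol, were called in neither plasmid comparison. They are too few to set apart from the shares of all genes given above.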

How the data were processed

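Groups and the replicate letters A and B were taken from the labels. Per the study's methods, single-end reads were cleaned by the authors with Trimmomatic 0.3.0, aligned to the genome of the parent strain Y22-3 with Bowtie 2 2.2.2 and counted per gene with HTSeq 0.6.0, versions as in the submitters' processing notes. Counts were scaled by the authors to RPKM, and the deposited table holds log2 RPKM for 6328 genes in 8 libraries. The strand setting of the counting is not given in the sources used here, and since the smallest values correspond to 1 read, such genes may have had 0.

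Values were returned to RPKM, and genes reaching 1 RPKM in 2 or more libraries of a fit were tested with limma 3.58.1 (R 4.3.3) on log2(RPKM + 1), using a variance trend and Benjamini-Hochberg adjustment over all genes tested. Changes on that scale understate low genes. Pairwise fits took the 4 libraries concerned, and the difference between effects took all 8. Scripts were tested on simulated data.

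The chaperone genes, the classes and the other folding genes were chosen with earlier results of these data known. Per library values were given for the 8 genes with the largest change called in each plasmid comparison, for genes called in *azf1Δ* against WT or in the difference, for related pairs and for the ribosome-bound set. Motifs, gene lengths and coding identity came from RefSeq R64 with Biopython 1.88, and read sharing from exact 100-base windows. No genome coordinates are given because the builds differ. Alternatives were a pseudocount of 0.1, no filter, a fit to all 8 libraries, no variance trend, median-ratio rescaling, a replicate block, summed pairs and leaving out each library.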

Additional observations from a re-analysis of the deposited data

How the results depend on the processing

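The count of chaperone genes called was 29 in MoBY control against WT, 25 in *AZF1* MoBY against MoBY control, 1 in *azf1Δ* against WT and 21 for the difference between effects. In *azf1Δ* against WT it was 0 with no filter, with no variance trend and after median-ratio rescaling, and 2 (*HSP26* and *HSP78*) with all 8 libraries in one fit. Leaving out 1 library gave 21 to 22, 0 to 23, 0 to 0 and 8 to 24 in the same order; the lone library of a group is then assumed to vary like the others. Over the whole table, the genes called in MoBY control against WT went from 1422 to 289 at the lowest. Without a variance trend the counts were 25, 17, 0 and 15. Deviations of same-lettered libraries correlated between -0.12 and 0.04 over 5646 genes, so no shared effect of the replicate letter was seen. Whether same-lettered cultures were collected together is not known from this. With the replicate block the counts were 29, 22, 0 and 19, the calls of *SSE1*, *HSP60* and *SSC1* being lost in the second, *HSP26* in the third and *YDJ1* and *AHA1* in the fourth. For 148 single values (genes and medians), 191 of 1619 recalculated values lost the call, 156 of them with a library left out, and 15 gained one. None changed direction while called, and 39 values called in neither changed sign. With 2 libraries a group, intervals are wide for low genes such as *HSP12*, and the causes of lost calls were not tested.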
